A study of Sus scrofa with 12 samples.

Results

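The SLC25 genes encode the mitochondrial carriers, a family of membrane proteins that move metabolites across the inner mitochondrial membrane, and the UCP genes encode the uncoupling proteins of the same family. The members were chosen by name alone: all rows called SLC25A with a number, or UCP1, UCP2 or UCP3, in the deposited gene count tables. There were 43 such rows of 30640. Of these, 41 had enough reads to be tested, and 39 had reads in every library. SLC25A2 and SLC25A44 were too low to test.

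Samples came from adult boars of one breed, the Banna mini-pig inbred line (BMI), which received no treatment before testis and epididymis were collected. Each tissue had 5 short-read RNA libraries, numbered 1 to 5, and the tissue is the one labelled difference between the groups, with breed, sex and husbandry shared. The file headers carry the boar numbers 21, 23, 25, 27 and 29 in both tissues, so that each boar gave a library of each tissue. The labels put the age at 12 months, whereas the headers read 12, 12, 11, 17 and 11 months for replicates 1 to 5. The labels do not say which region of the epididymis was taken. Both tissues are mixtures of cell types, so in every comparison fewer cells of a type and less RNA per cell cannot be told apart.

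The inner mitochondrial membrane is closed to most ions and metabolites, and carriers exchange or admit the substrates that the matrix needs. ADP/ATP carriers send ATP out for ADP, the phosphate carrier brings in phosphate for ATP synthesis, and other members carry citrate, malate, amino acids, acylcarnitines, coenzymes and nucleotides. A typical carrier is built from repeats of a pair of membrane helices. In the testis, germ cells change their mitochondria and their fuels as they mature, and SLC25A31 is known as a germ cell ADP/ATP carrier. The epididymis is a secretory and absorptive duct wrapped in muscle, in which sperm mature.

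Library totals ran from 17980578 to 30211957 reads, and the values below are counts per 1000000 reads of the library (CPM). A library without a read of a gene allows up to 3 reads, or 0.0993 to 0.167 CPM, and this covers counting error only. Levels of different genes are compared as reads per kilobase of gene length per 1000000 reads (RPKM). Testis replicate 4 stood apart from the other testis libraries. Its small structural RNAs summed to 70.8 CPM against 15043 to 16185, which was close to the 71.7 to 132 CPM of the epididymis libraries. Histone genes likewise had 96.4 CPM there, against 2426 to 3449 for the rest of testis and 91.1 to 346 for epididymis. Its transcripts of the mitochondrial genome made up 16159 CPM against 5238 to 8323 (epididymis 17840 to 64534). Testis replicates 1, 2, 3 and 5 thus differed from every epididymis library in small structural and histone RNA as well as in tissue. The part of this difference in the tissue comparisons was not tested. Epididymis replicate 3 also stood apart, with 5909 CPM of RNASE10, a gene of the first part of the duct, against 6.12 to 16.0 in the other epididymis libraries, and with 53.2 CPM of CRISP1, a secreted sperm-binding protein, against 1382 to 2680. Marker genes followed the labels, since all 13 haploid germ cell markers tested and all 5 Leydig cell markers tested were higher in testis, and all 8 epididymal principal cell markers tested were higher in epididymis. The haploid germ cell markers summed to 17601 to 24392 CPM in testis, to 740 CPM in epididymis replicate 3 and to 81.4 to 173 CPM in the other epididymis libraries.

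The summed counts of the family were higher in epididymis, where SLC25A6 and SLC25A29 had the highest means. The 43 rows summed to 1803, 1901, 1871, 2164 and 1809 CPM in testis replicates 1 to 5 and to 4576, 4702, 3551, 3789 and 4241 CPM in epididymis replicates 1 to 5. No testis library reached the lowest epididymis library. Per gene length the gap was smaller, with summed levels of 784 to 944 RPKM in testis and 1041 to 1560 RPKM in epididymis, again without overlap. Without SLC25A6 and SLC25A29, the members with the highest mean level in epididymis, the remaining rows summed to 1501 to 1781 CPM in testis and 1510 to 1974 CPM in epididymis. Their summed levels were 719 to 857 RPKM in testis and 623 to 797 RPKM in epididymis, so the tissues overlapped on both scales. By CPM, epididymis replicates 1, 2 and 5 (1836 to 1974) still lay above every testis library. The members left out were picked for their epididymis level in these same data. The smaller gap therefore does not show what the difference rested on.

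The difference was uneven across members. By edgeR's quasi-likelihood test with Benjamini-Hochberg adjustment over 17225 genes, 10 of the 41 tested members (24.4%) were higher in testis, where 36.6% of all genes tested were. Another 19 (46.3%) were higher in epididymis, against 37.8% of all genes, and 12 were not called. In all 29 members (70.7%) differed in either direction, which is near the 74.4% of all genes. The median log2 fold change (testis over epididymis) was -0.57 for the members and -0.07 for all genes. A change beyond 2-fold was called for 9 members in testis (22.0%, all genes 27.3%) and for 12 in epididymis (29.3%, all genes 23.4%), together 21 (51.2%, all genes 50.7%). The lowest testis library exceeded the highest epididymis library for 10 members (24.4%, all genes 32.1%), and the reverse held for 16 (39.0%, all genes 29.3%).

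**Figure D1:**
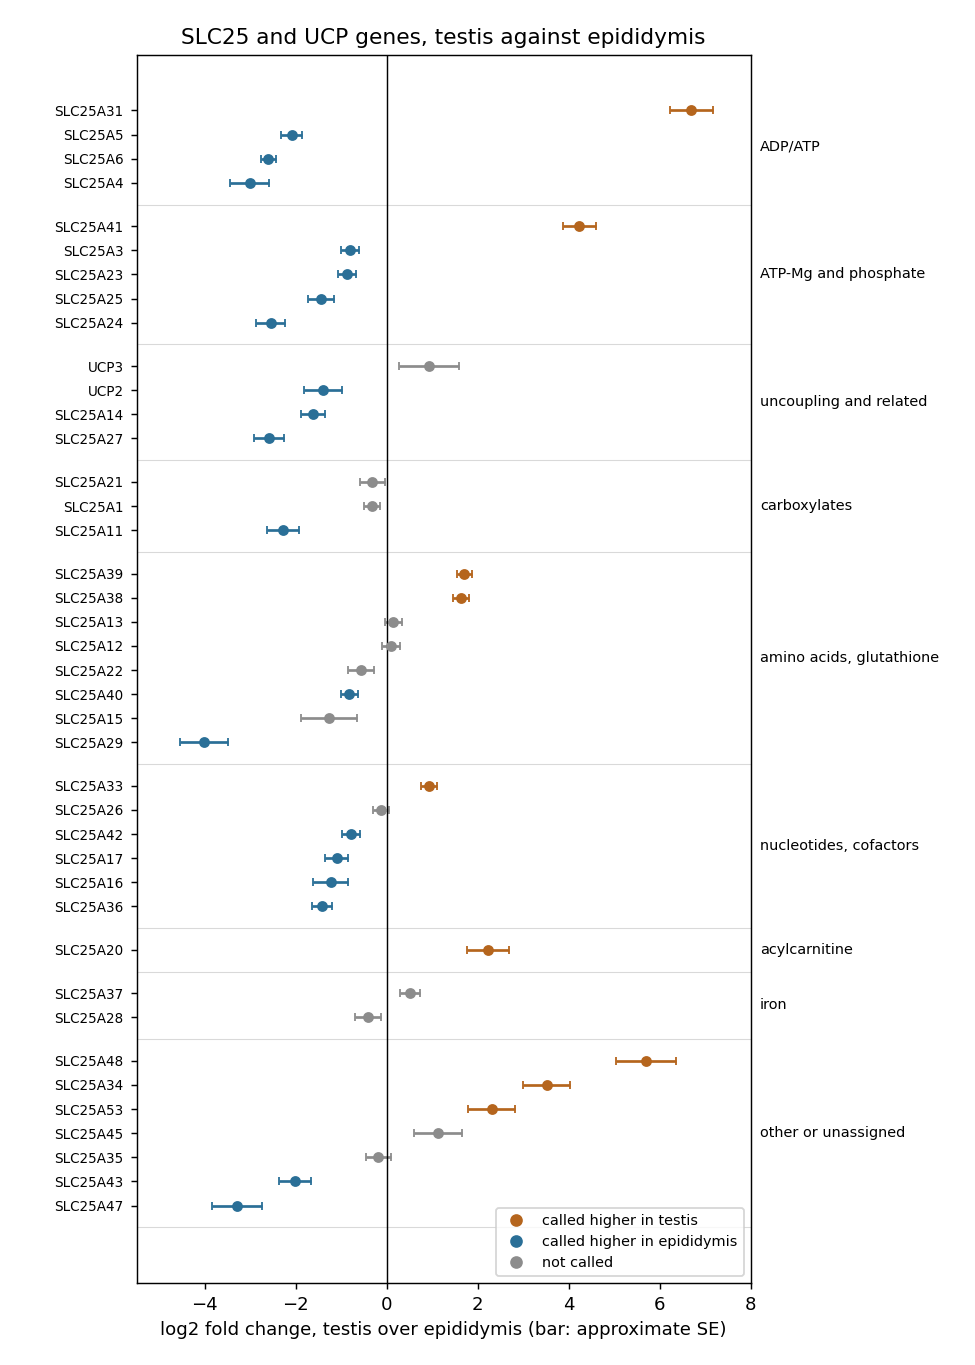
Log2 fold change (testis over epididymis) of 40 of the 41 tested members, grouped by what they carry, with bars for the approximate standard error and 5 libraries per tissue. The changes ran from -4.02 for SLC25A29 to 6.70 for SLC25A31, and all groups of more than 2 members except the uncoupling proteins and the carboxylate carriers held calls in both directions.

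Calls were few when testis replicate 4 stood alone for the testis. Against the 5 epididymis libraries, 7 of 42 members then tested (16.7%, all genes 23.4%) were higher in testis and 3 (7.14%, all genes 11.4%) were higher in epididymis. Of the 28 tested members named by rule, 16 stayed on their side of the threshold, 12 lost their call and 0 changed sign. The 12 were SLC25A3, SLC25A4, SLC25A14, SLC25A20, SLC25A24, SLC25A27, SLC25A29, SLC25A34, SLC25A43, SLC25A47, SLC25A53 and UCP2, with adjusted p from 0.0638 to 0.574. The fold stayed about as large or larger for 4 of them: the log2 fold change went from 2.22 to 2.05 for SLC25A20, from 2.30 to 2.16 for SLC25A53, from -3.29 to -3.29 for SLC25A47 and from -1.40 to -1.78 for UCP2. That fit holds 1 testis library, which is assumed to vary like the epididymis libraries. With testis replicate 4 and epididymis replicate 3 both left out, 10 of the 41 members (24.4%, all genes 40.3%) were higher in testis and 20 (48.8%, all genes 38.6%) were higher in epididymis. A change beyond 2-fold was then called for 23 (56.1%, all genes 55.7%).

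The ADP/ATP carriers divided by isoform. SLC25A31, the germ cell isoform, was higher in testis, and SLC25A4, SLC25A5 and SLC25A6 were each higher in epididymis. All 4 showed no overlap between the tissues and a change beyond 2-fold.

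SLC25A31 (chromosome 8, 97095503 to 97120940, Sscrofa11.1) measured 10.3, 7.05, 6.99, 11.6 and 8.46 CPM in testis replicates 1 to 5. The epididymis libraries gave 0, 0.0548, 0.137, 0.111 and 0.0979 CPM, that is 8 reads in all against 989 in testis. Every testis library was thus far above every epididymis library, all of which were at or under the limit that a count of 0 allows. The means were 8.89 ± 2.04 and 0.0801 ± 0.0537 CPM (SD, n = 5 each), a 104-fold difference with a log2 fold change of 6.70 ± 0.47 (approximate SE) and an adjusted p of 1.8e-07. The epididymis library with 0 reads was replicate 1, and epididymis replicate 3, which had the highest germ cell marker sum, had 0.137 CPM. The part of germ cells in the epididymal reads was not tested.

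SLC25A6, a broadly expressed isoform, was the most abundant carrier per length in epididymis. Testis replicates 1 to 5 gave 263, 274, 257, 312 and 263 CPM and epididymis replicates 1 to 5 gave 1776, 1602, 1885, 1592 and 1603 CPM. Libraries of a tissue lay close together and the tissues far apart. The means were 274 ± 22.2 and 1692 ± 132 CPM, with a log2 fold change of -2.61 ± 0.16 and an adjusted p of 9.6e-08. The gene table used here holds no chromosome position for SLC25A6.

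SLC25A5 (chromosome X, 97919295 to 97922245) is the isoform known from growing cells. It gave 24.9, 23.9, 19.2, 39.8 and 24.6 CPM in testis and 109, 72.1, 132, 129 and 129.9 CPM in epididymis. The highest testis library was replicate 4 and the lowest epididymis library was replicate 2, and they did not meet. The means were 26.5 ± 7.80 and 114 ± 25.4 CPM, with a log2 fold change of -2.09 ± 0.23 and an adjusted p of 6.1e-06. Fitted with testis replicate 4 alone against the epididymis libraries, it was -1.42 (adjusted p 0.0435).

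SLC25A4 (chromosome 15, 46193498 to 46197989) is the main isoform of heart and skeletal muscle. Its testis values were 18.0, 16.8, 14.1, 49.9 and 16.8 CPM and its epididymis values 211, 183, 80.2, 181 and 272 CPM. Testis replicate 4 was well above the other testis libraries, and epididymis replicate 3 was the lowest of its tissue. The means were 23.1 ± 15.0 and 185 ± 69.4 CPM, an 8.08-fold difference with a log2 fold change of -3.01 ± 0.42 and an adjusted p of 4.6e-05. In the fit of testis replicate 4 alone, it was -1.81 (adjusted p 0.0902), and with testis replicate 4 and epididymis replicate 3 left out it was -3.69. The 8 smooth muscle markers, all higher in epididymis, summed to 6202 to 17672 CPM there and 393 to 555 CPM in testis, with 0 of them without reads in either tissue. The skeletal muscle markers summed to 14.1 to 47.1 CPM in epididymis and 23.3 to 33.7 CPM in testis. Of the 5 tested, 2 were higher in epididymis, 1 was higher in testis and 2 were not called. CKM, 1 of the 2 higher in epididymis, had means of 17.7 CPM there and 2.02 CPM in testis (log2 fold change -3.13). It stands outside the naming rule and does not speak for the list. The part of muscle in the SLC25A4 difference was not tested.

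**Figure D2:**
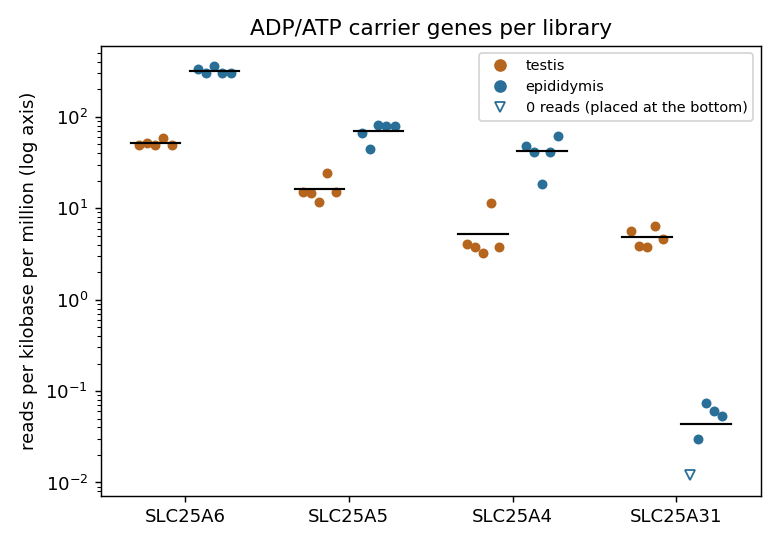
Level per gene length (RPKM, log axis) of the ADP/ATP carrier genes in each of the 5 testis and 5 epididymis libraries, with lines at the tissue means; the open triangle is a library with 0 reads. SLC25A6 leads in both tissues, and SLC25A31 lies at 4.85 RPKM in testis and 0.0437 RPKM in epididymis.

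Per length, the order in testis was SLC25A6 at 51.8 ± 4.2 RPKM, SLC25A5 at 16.2 ± 4.78, SLC25A4 at 5.24 ± 3.41 and SLC25A31 at 4.85 ± 1.11 (SD, n = 5). The last 2 did not differ beyond their spread, and their order rested on testis replicate 4. SLC25A31 was above SLC25A4 in the other 4 testis libraries, with means of 4.48 ± 0.861 and 3.72 ± 0.371 RPKM without replicate 4. Their order also rested on the deposited gene lengths, 4406 bases for SLC25A4 and 1834 bases for SLC25A31. By CPM, SLC25A4 was above SLC25A31 in every testis library, at 14.1 to 49.9 against 6.99 to 11.6 CPM. In epididymis the order was SLC25A6 at 320.2 ± 25.1 RPKM, SLC25A5 at 70.0 ± 15.5, SLC25A4 at 42.1 ± 15.8 and SLC25A31 at 0.0437 ± 0.0293. The 4 genes together summed to 78.1 ± 13.1 RPKM in testis (67.4 to 101) and 432 ± 27.6 RPKM in epididymis (389 to 456), without overlap.

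As shares of that sum, SLC25A31 made up 6.19 ± 0.893% of the ADP/ATP carrier level in testis (5.18 to 7.55%) and 0.0101 ± 0.00650% in epididymis (0 to 0.0164%). SLC25A6 held 67.0 ± 5.25% in testis and 74.1 ± 4.29% in epididymis, and SLC25A5 held 20.4 ± 2.40% and 16.1 ± 3.03%. The ranges of both overlapped between the tissues. SLC25A4 held 6.35 ± 2.72% in testis and 9.78 ± 3.60% in epididymis, also with overlap. Testis replicate 4 had the lowest testis share of SLC25A6, 58.4%, and the highest of SLC25A4, 11.2%, and of SLC25A5, 24.1%. Its share of SLC25A31, 6.26%, was inside the range of the other testis libraries. ADP/ATP carrier genes resemble one another and have processed copies in mammalian genomes, so counting may have divided or dropped their reads. The shares also rest on the deposited gene lengths, 5283 bases for SLC25A6, 4406 for SLC25A4, 1633 for SLC25A5 and 1834 for SLC25A31. The length of SLC25A4 is nearly its whole span on the chromosome, and whether the lengths match the transcripts present was not tested. The shares are uncertain for both reasons.

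**Figure D3:**
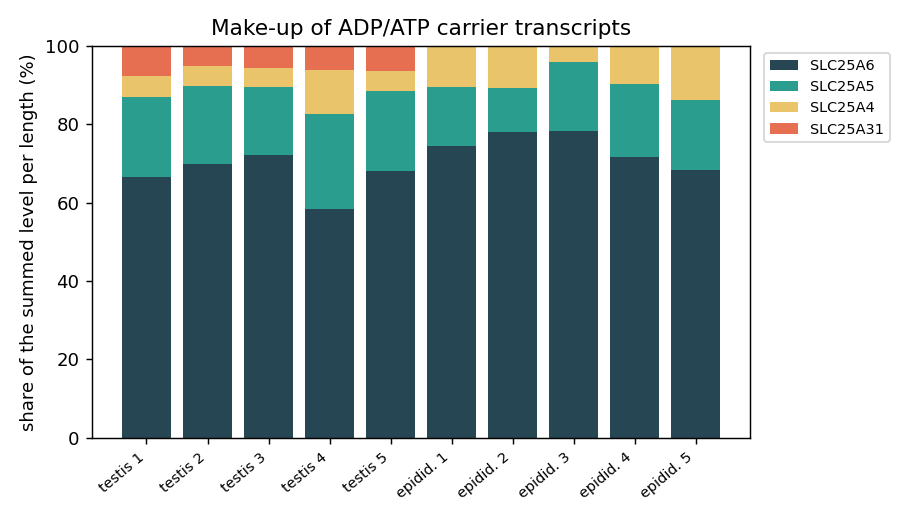
Share of each ADP/ATP carrier gene in their summed level per gene length, in percent, for each of the 10 libraries. SLC25A6 takes 58.4 to 72.2% in testis and 68.2 to 78.2% in epididymis, and the SLC25A31 segment is visible in the testis libraries alone, since it is at most 0.0164% in epididymis.

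Among the phosphate and ATP-Mg carriers, 1 of 5 was higher in testis and 4 were higher in epididymis. ATP-Mg carriers exchange ATP-Mg for phosphate and so set the adenine nucleotide content of the matrix, and SLC25A23, SLC25A24 and SLC25A25 carry a calcium-binding domain that SLC25A41 lacks.

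SLC25A41 (chromosome 2, 72645505 to 72655240) was the member higher in testis. Its testis values were 26.7, 28.7, 30.1, 44.5 and 30.9 CPM and its epididymis values 1.43, 3.23, 1.78, 0.945 and 1.18 CPM. Every testis library exceeded every epididymis library, with testis replicate 4 the highest of all. The means were 32.2 ± 7.06 and 1.71 ± 0.904 CPM, an 18.8-fold difference with a log2 fold change of 4.23 ± 0.36 and an adjusted p of 8.3e-07.

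SLC25A24 (chromosome 4, 111580186 to 111632390) moved the other way. It gave 4.0, 3.74, 4.03, 7.0 and 4.23 CPM in testis and 26.6, 16.2, 17.5, 30.9 and 44.6 CPM in epididymis, without overlap. The tissues differed by a log2 fold change of -2.55 ± 0.32 with an adjusted p of 1.9e-05. With testis replicate 4, the highest testis library, as the only one it was -1.87 (adjusted p 0.0856). The other 2 calcium-regulated members, SLC25A23 and SLC25A25, were also higher in epididymis, with log2 fold changes from -1.44 to -0.87 and adjusted p from 0.000767 to 0.0017.

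SLC25A3 (chromosome 5, 85284405 to 85292336), the phosphate carrier on which ATP synthesis depends, had rank 2 of the 43 members per length in testis and rank 3 in epididymis. It gave 194, 246, 241, 339.6 and 210.2 CPM in testis and 429, 451, 402, 379.8 and 507 CPM in epididymis. Testis replicate 4 came nearest to the epididymis libraries without reaching them. The means were 246 ± 56.6 and 434 ± 49.2 CPM, with a log2 fold change of -0.81 ± 0.19 and an adjusted p of 0.00235. Testis replicate 4 alone gave -0.26 (adjusted p 0.574).

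Of the 4 uncoupling proteins and relatives tested, 3 were higher in epididymis and 1 was not called. Uncoupling proteins are known for letting protons or small anions cross the inner membrane. UCP1, the heat-producing member of brown fat, and SLC25A30 had no row of that name and were not analysed here.

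UCP2 (chromosome 9, 8358559 to 8364552), a broadly expressed member, gave 9.73, 8.21, 7.91, 5.77 and 8.09 CPM in testis and 36.3, 29.7, 6.34, 15.6 and 17.3 CPM in epididymis. Epididymis replicate 3 fell within the testis range, and the other epididymis libraries lay above it. The means were 7.94 ± 1.42 and 21.1 ± 11.9 CPM, with a log2 fold change of -1.40 ± 0.41 and an adjusted p of 0.00813. Of the 8 macrophage markers, 6 were higher in epididymis, where 37.8% of all genes were. The markers summed to 223, 220, 306, 448 and 131 CPM in epididymis replicates 1 to 5 and to 122 to 161 CPM in testis. Their part in the UCP2 difference was not tested. UCP2 shares its position with DNAJB13, so reads of the pair may be mixed.

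UCP3 (chromosome 9, 8378023 to 8389452), the muscle member, was scarce in both tissues. It gave 0.666, 0.695, 1.02, 0.534 and 0.739 CPM in testis and 0.967, 0.548, 0.0456, 0.0556 and 0.294 CPM in epididymis, with overlap. The difference was not called (log2 fold change 0.93 ± 0.65, adjusted p 0.207). Without epididymis replicate 1, the highest of its tissue, it was called higher in testis (1.65, adjusted p 0.0358).

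SLC25A27 and SLC25A14, which are related to the uncoupling proteins and best known from brain, were both higher in epididymis without overlap. SLC25A27 (chromosome 7, 41426161 to 41457887) gave 5.38, 3.14, 3.70, 7.0 and 5.13 CPM in testis and 48.1, 24.4, 20.9, 37.2 and 17.7 CPM in epididymis. Its log2 fold change was -2.59 ± 0.33 with an adjusted p of 1.9e-05. SLC25A14 (chromosome X, 106828695 to 106859128) gave 4.41, 4.17, 3.66, 6.04 and 4.39 CPM in testis and 16.4, 15.4, 8.48, 12.2 and 17.8 CPM in epididymis, with a log2 fold change of -1.63 ± 0.26 and an adjusted p of 0.000137. For testis replicate 4 alone the changes were -1.98 (SLC25A27, adjusted p 0.0639) and -1.13 (SLC25A14, adjusted p 0.163).

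Of the 3 carboxylate carriers found by name, 1 was higher in epididymis and 2 were not called. SLC25A1 (chromosome 14, 50974616 to 51002970), which exports citrate for fatty acid and sterol synthesis, was among the 10 most abundant members. Testis values were 94.0, 107, 103, 90.6 and 103 CPM and epididymis values 143, 143, 84.8, 129.9 and 127 CPM. Epididymis replicate 3 lay below every testis library, and the other epididymis libraries lay above all of them. The change was -0.32 ± 0.18 on the log2 scale with an adjusted p of 0.129. Without epididymis replicate 3 SLC25A1 was called higher in epididymis (-0.46, adjusted p 0.0164). Another annotated gene overlaps it.

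SLC25A11 (chromosome 12, 51970794 to 51973668), the exchanger of 2-oxoglutarate and malate that serves the malate-aspartate shuttle, was higher in epididymis. It gave 1.59, 2.55, 2.45, 3.63 and 0.821 CPM in testis and 10.3, 9.96, 13.9, 11.9 and 8.81 CPM in epididymis, without overlap. Its log2 fold change was -2.29 ± 0.36 with an adjusted p of 0.000103. Testis replicate 4 alone gave -1.49 (adjusted p 0.043). RNF167 overlaps the gene, so its reads are uncertain. SLC25A21, an oxodicarboxylate carrier outside the naming rule and named to complete the group, was not called (-0.31, adjusted p 0.312).

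The amino acid and glutathione carriers held the most abundant member of testis and the largest difference towards epididymis. Of 10 members, 2 were higher in testis, 2 were higher in epididymis, 4 were not called and 2 were not tested.

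SLC25A39 (chromosome 12, 18913261 to 18919761), which is needed for glutathione import into mitochondria, was the most abundant member per length in testis, at 286 ± 16.0 RPKM, and had rank 4 in epididymis at 88.5 ± 12.5 RPKM. Its values were 491, 503, 534, 495 and 456 CPM in testis and 183, 166, 129, 138 and 151 CPM in epididymis. The libraries of each tissue kept close together, including testis replicate 4 and epididymis replicate 3, and did not overlap. The tissues differed by a log2 fold change of 1.71 ± 0.17 (3.26-fold) with an adjusted p of 3.2e-06. SLC25A40, its close relative, was higher in epididymis, with a log2 fold change of -0.83 ± 0.18 and an adjusted p of 0.0015. It stands outside the naming rule and was singled out after its values were seen.

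SLC25A38 (chromosome 13, 24030571 to 24043866), a glycine carrier of the first step of heme synthesis, was higher in testis. It gave 61.5, 60.4, 64.1, 46.1 and 61.7 CPM in testis and 18.3, 21.2, 21.2, 17.1 and 18.0 CPM in epididymis. Testis replicate 4 was the lowest testis library and still above every epididymis library. The change was 1.64 ± 0.17 on the log2 scale with an adjusted p of 4.6e-06.

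SLC25A29 (chromosome 7, 121178211 to 121192369), a carrier of basic amino acids such as arginine and lysine, showed the largest difference towards epididymis. Its testis values were 39.4, 31.7, 35.4, 71.2 and 31.2 CPM and its epididymis values 830.1, 1264, 156, 438 and 664 CPM. Epididymis libraries ranged widely, and the lowest, replicate 3, still exceeded the highest testis library, replicate 4. The means were 41.8 ± 16.8 and 670.5 ± 417 CPM, a 16.2-fold difference with a log2 fold change of -4.02 ± 0.52 and an adjusted p of 2.5e-05. Fitted with testis replicate 4 alone against the epididymis libraries, it was -3.15 (adjusted p 0.085). Epididymis replicate 3 differed from the other epididymis libraries in RNASE10 and CRISP1 as given above, and the part of duct region in its low SLC25A29 value was not tested.

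SLC25A22 (chromosome 2, 491288 to 498773), a glutamate carrier, overlapped between the tissues, with 24.3, 37.0, 21.4, 19.0 and 21.8 CPM in testis and 30.3, 47.5, 53.3, 22.2 and 33.7 CPM in epididymis. It was not called (log2 fold change -0.57 ± 0.28, adjusted p 0.0865), and it passed the threshold towards epididymis without testis replicate 2 (-0.77, adjusted p 0.0283) or without epididymis replicate 4 (adjusted p 0.0227). The other 3 that were not called are SLC25A12 and SLC25A13, the aspartate-glutamate carriers of the malate-aspartate shuttle, and SLC25A15, an ornithine carrier of the urea cycle. Their log2 fold changes ran from -1.27 to 0.15 and their adjusted p from 0.0803 to 0.671. SLC25A15, singled out after its values were seen, was at 23.9 CPM in epididymis replicate 3 and 2.41 to 3.57 CPM in the other epididymis libraries.

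The 2 members too low to test belong to this group. SLC25A2, an ornithine carrier, had 12 reads in testis and 59 in epididymis, with 0 to 1.26 CPM over the 10 libraries. SLC25A44 (chromosome 4, 93837004 to 93857154), a carrier of branched-chain amino acids, had 6 reads in testis and 12 in epididymis, with 0 to 0.334 CPM.

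Nucleotide and cofactor carriers were called in both directions: 2 of 7 were higher in testis, 4 were higher in epididymis and 1 was not called. SLC25A33 (chromosome 6, 69934810 to 69969091), a pyrimidine nucleotide carrier, was higher in testis but was not called beyond 2-fold. It gave 53.1, 47.9, 51.2, 75.7 and 55.3 CPM in testis and 34.3, 26.4, 25.4, 33.8 and 30.3 CPM in epididymis, without overlap. Its log2 fold change was 0.93 ± 0.17 with an adjusted p of 0.000433. The 4 higher in epididymis were SLC25A36, also a pyrimidine nucleotide carrier, SLC25A42, a coenzyme A carrier, SLC25A16, and SLC25A17, a carrier of the peroxisome, with log2 fold changes from -1.42 to -0.78 and adjusted p from 0.000112 to 0.0128. SLC25A26, which imports S-adenosylmethionine, was not called (-0.13, adjusted p 0.515).

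SLC25A20 (chromosome 13, 31523820 to 31553289) exchanges acylcarnitines for carnitine and so feeds long-chain fatty acids to beta-oxidation. It was higher in testis, with 58.0, 65.9, 54.9, 48.1 and 61.4 CPM there and 7.33, 10.1, 34.1, 7.29 and 4.95 CPM in epididymis. Epididymis replicate 3 was the highest epididymis library and did not reach the lowest testis library. The means were 57.7 ± 6.70 and 12.7 ± 12.1 CPM, a 4.65-fold difference with a log2 fold change of 2.22 ± 0.47 and an adjusted p of 0.000987. Without epididymis replicate 3 the log2 fold change was 2.95. In that library CPT1A, which makes acylcarnitines at the outer membrane, was also high, at 110 CPM against 15.5 to 28.5 CPM in the other epididymis libraries. CPT1A stands outside the naming rule for related genes. Of the other carnitine enzymes, CPT1C had its highest epididymis value in that library too, at 120 CPM. CPT1B (44.4 CPM), CPT2 (23.3), CRAT (209) and CROT (85.5) lay within the range of the other epididymis libraries. The clear cell markers summed to 166 CPM in epididymis replicate 3 against 2.35 to 5.67 CPM in the others, and CA2 alone gave 129.8 CPM of that sum. The same list summed to 62.0 to 69.7 CPM in testis. Adipocyte markers were also high in that library, at 79.4 CPM against 6.84 to 29.4 CPM, as were fibroblast markers at 5278 CPM against 1506 to 4045 CPM. The part of these cell types in the SLC25A20 value was not tested.

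The mitoferrins, which bring iron into mitochondria, were not called. SLC25A37, or mitoferrin 1 (chromosome 14, 7665002 to 7709998), gave 36.2, 33.8, 38.8, 59.4 and 38.4 CPM in testis and 38.5, 30.4, 31.9, 28.0 and 17.9 CPM in epididymis, overlapping. Its log2 fold change was 0.51 ± 0.23 and its adjusted p 0.0607, and with DESeq2's size factors it was called higher in testis (0.63, adjusted p 0.0273). It was also called without testis replicate 1 (adjusted p 0.0482) or without epididymis replicate 1 (adjusted p 0.0280). SLC25A28, or mitoferrin 2 (chromosome 14, 110795304 to 110805631), gave 64.3, 67.8, 60.9, 60.9 and 69.7 CPM in testis and 107, 141, 53.2, 56.2 and 72.2 CPM in epididymis. The epididymis libraries lay on both sides of the testis libraries (log2 fold change -0.41 ± 0.28, adjusted p 0.204). Without epididymis replicates 3 and 4 it was called higher in epididymis (-0.78, adjusted p 0.00615).

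Of the 7 members whose cargo is less settled, 3 were higher in testis, 2 were higher in epididymis and 2 were not called. SLC25A48 (chromosome 2, 137979811 to 138035582), linked to mitochondrial choline import, measured 17.5, 21.4, 23.1, 37.5 and 20.7 CPM in testis and 0.305, 0.383, 0.365, 1.33 and 0 CPM in epididymis. The tissues were far apart in every library. The means were 24.1 ± 7.79 and 0.478 ± 0.504 CPM, a 52.1-fold difference with a log2 fold change of 5.70 ± 0.65 and an adjusted p of 9.1e-06. Without epididymis replicate 4, which held most of the epididymal reads, the log2 fold change was 6.46.

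SLC25A34 (chromosome 6, 74909637 to 74914430), a carrier of unsettled substrate, gave 5.17, 7.35, 2.64, 1.39 and 3.61 CPM in testis and 0.458, 0.438, 0.410, 0.334 and 0.147 CPM in epididymis. Its testis values spread widely with replicate 4 the lowest, and they did not overlap those of epididymis. The tissues differed by a log2 fold change of 3.52 ± 0.51 with an adjusted p of 6.0e-05. In the fit of testis replicate 4 alone, it was 2.05 (adjusted p 0.074).

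SLC25A53 (chromosome X, 84860180 to 84871866) gave 3.33, 2.32, 3.05, 2.30 and 2.34 CPM in testis and 1.02, 0.110, 0.228, 1.00 and 0.392 CPM in epididymis. All testis libraries were above all epididymis libraries at these low levels. Its log2 fold change was 2.30 ± 0.51 and its adjusted p 0.00139. TMSB15B and ZCCHC18 overlap its position, so reads may be shared.

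SLC25A47 (chromosome 7, 121204213 to 121210376), best known from liver, was higher in epididymis. It gave 1.95, 2.42, 2.45, 2.03 and 1.85 CPM in testis and 33.9, 20.2, 2.60, 32.5 and 17.6 CPM in epididymis. Epididymis replicate 3 was close to the testis libraries and the other epididymis libraries were well above. The change was -3.29 ± 0.54 on the log2 scale with an adjusted p of 0.000162.

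SLC25A43 (chromosome X, 97868804 to 97906771) was also higher in epididymis. It gave 1.49, 2.88, 1.85, 4.70 and 2.42 CPM in testis and 9.16, 8.60, 16.6, 14.2 and 6.56 CPM in epididymis, without overlap. Its log2 fold change was -2.02 ± 0.36 with an adjusted p of 0.00027, and for testis replicate 4 alone the change was -1.11 (adjusted p 0.19). AKAP17B overlaps the gene.

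SLC25A35 (chromosome 12, 53486687 to 53495972) had 28.4, 27.3, 26.9, 24.4 and 27.5 CPM in testis and 37.0, 28.6, 15.5, 26.0 and 46.8 CPM in epididymis. The testis libraries were tight and the epididymis libraries spread around them (log2 fold change -0.19 ± 0.27, adjusted p 0.547). Without epididymis replicates 3 and 4 it was called higher in epididymis (-0.53, adjusted p 0.031). ARHGEF15 and RANGRF overlap it. SLC25A45 was not called either, with a log2 fold change of 1.12 and an adjusted p of 0.0729.

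**Figure D4:**
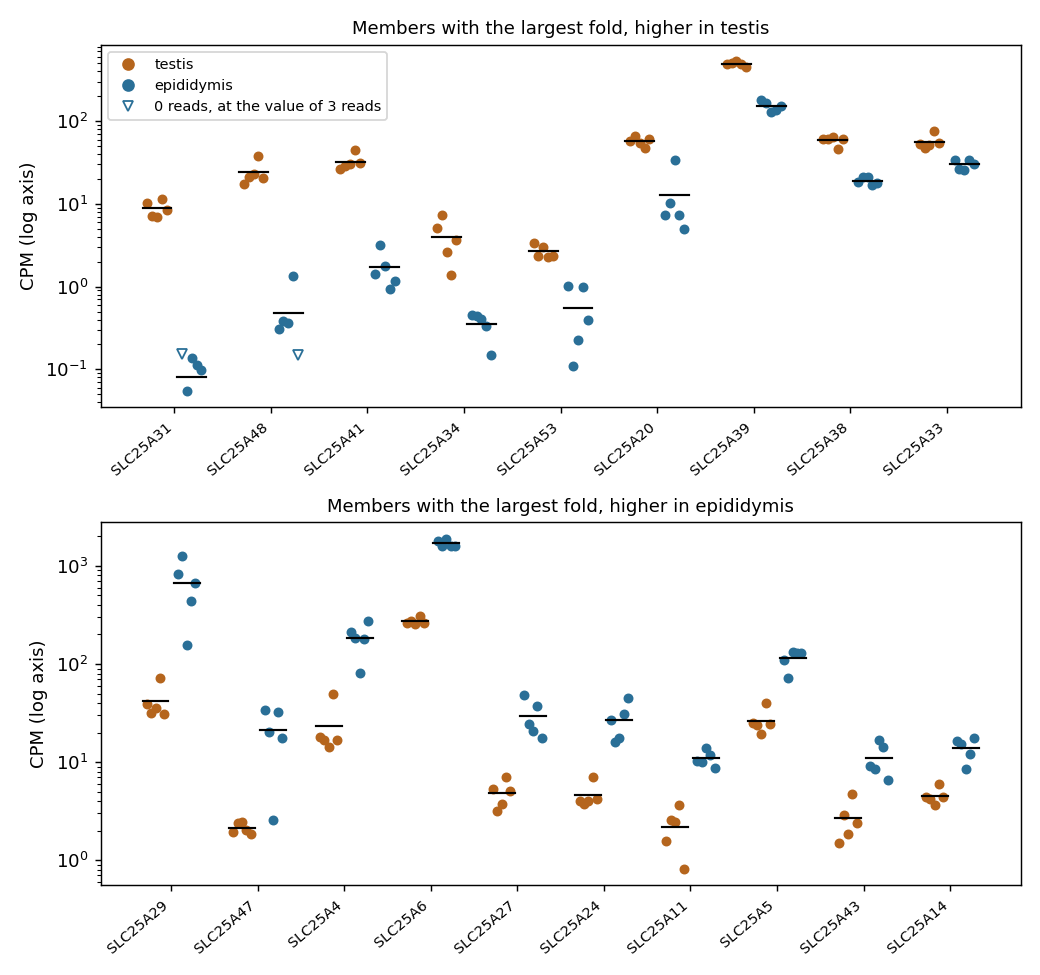
CPM (log axis) in each library of 9 of the 10 members with the largest fold among those higher in testis (top) and of the 10 among those higher in epididymis (bottom), with lines at the tissue means; open triangles are libraries with 0 reads, drawn at the value of 3 reads. No member of either panel has overlapping tissues, and SLC25A47 comes closest at 2.45 CPM in testis and 2.60 CPM in epididymis.

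The make-up of the family by transcript level per length also differed between the tissues. SLC25A39 took 34.4 ± 2.71% of the summed family level in testis and 6.78 ± 0.455% in epididymis (SD, n = 5). SLC25A6 took 6.22 ± 0.193% in testis and 25.1 ± 5.64% in epididymis, and SLC25A29 took 1.94 ± 0.601% and 18.9 ± 9.55%. SLC25A3 was near in both, at 14.5 ± 2.10% and 16.6 ± 2.27%. SLC25A20 took 3.94 ± 0.663% in testis and 0.612 ± 0.693% in epididymis, where the mean rested on replicate 3: that library gave 1.85%, and the other 4 gave 0.304 ± 0.0733%. SLC25A41 took 2.79 ± 0.388% and 0.0939 ± 0.0411%. These are shares of transcripts and not of protein.

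**Figure D5:**
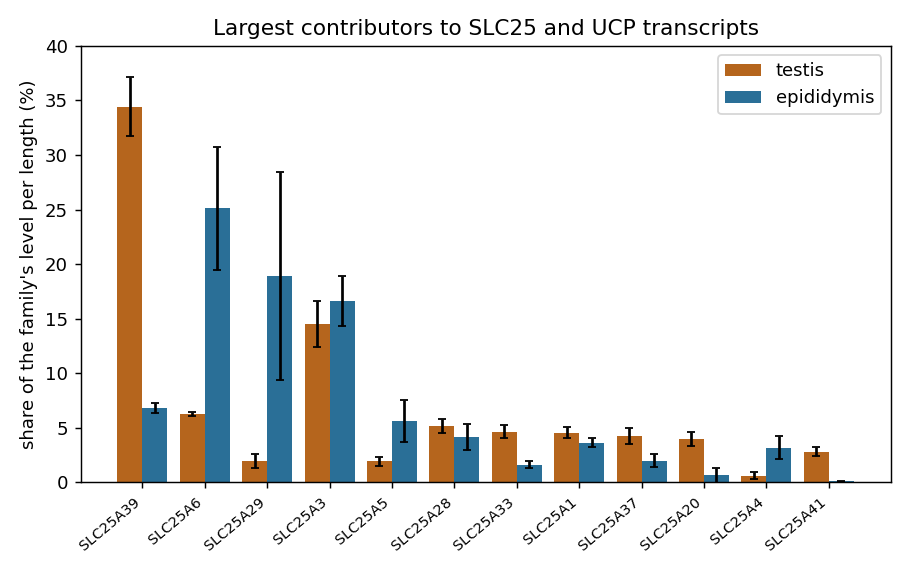
Mean share of the summed family level per gene length, in percent, for the members with the largest shares, with bars for the SD over 5 libraries per tissue. SLC25A39 leads in testis at 34.4%, and SLC25A6 (25.1%), SLC25A29 (18.9%) and SLC25A3 (16.6%) lead in epididymis.

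Members lying next to each other did not always go the same way. Of the 41 members placed on a chromosome, 4 pairs lay within 50 kb. SLC25A23 (chromosome 2, 72625544 to 72643572), higher in epididymis, and SLC25A41, higher in testis, are 1932 bases apart. SLC25A29 and SLC25A47 are 11843 bases apart on chromosome 7, and both were higher in epididymis. Both showed their lowest epididymis value in replicate 3, which was the lowest for 16 of 41 members (39.0%) and for 19.6% of all genes tested. SLC25A43 and SLC25A5, 12523 bases apart on chromosome X, were also both higher in epididymis, and UCP2 and UCP3 are 13470 bases apart on chromosome 9, with UCP2 called and UCP3 not.

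Another 3 carriers are filed under an Ensembl identifier and stand outside the 43 members. SLC25A10 (chromosome 12, 1191242 to 1197439), the dicarboxylate carrier that exchanges malate and succinate for phosphate, gave 53.9, 57.2, 57.0, 62.9 and 52.8 CPM in testis and 194, 245, 538, 114 and 250.0 CPM in epididymis. It was higher in epididymis without overlap, with a log2 fold change of -2.22 ± 0.34 and an adjusted p of 9.9e-05 (0.112 for testis replicate 4 alone). SLC25A32, a folate carrier (log2 fold change -0.35 ± 0.50, adjusted p 0.535), and SLC25A46, a protein of the outer membrane (log2 fold change -0.27 ± 0.31, adjusted p 0.435), were not called. With testis replicate 4 and epididymis replicate 3 left out, SLC25A46 was called higher in epididymis (-0.67, adjusted p 0.0285). Other annotated genes overlap SLC25A10 and SLC25A32. SLC25A18, SLC25A51 and SLC25A52 had no row of that name and were not analysed here.

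Genes that work with the carriers were read from the same fit. For each group the counts can be set against the 36.6% of all genes higher in testis, the 37.8% higher in epididymis and the median log2 fold change of -0.07 given above. Relatives with the carrier fold in the outer membrane split: MTCH1 was higher in epididymis (98.5 ± 11 CPM in testis, 276 ± 98.2 in epididymis, log2 fold change -1.45 ± 0.23, adjusted p 0.000103), and MTCH2, an insertase of the outer membrane, was higher in testis (177 ± 24.2 and 63.4 ± 16.0 CPM, 1.49 ± 0.19, adjusted p 2.3e-05). Both subunits of the pyruvate carrier that were tested were higher in testis. MPC1L, known as a testis form, gave 19.6 ± 10.6 CPM in testis and 0.145 ± 0.0528 CPM in epididymis (log2 fold change 7.05 ± 0.44, adjusted p 9.0e-08), and MPC2 gave 57.6 ± 4.72 and 15.1 ± 4.73 CPM (1.96 ± 0.22, adjusted p 9.3e-06).

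Of the 5 sideroflexins, 2 were higher in testis, 1 was higher in epididymis and 2 were not called (median 0.03). SFXN1, the serine carrier, was higher in testis at 115 ± 20.4 against 12.0 ± 6.88 CPM (log2 fold change 3.30 ± 0.32, adjusted p 2.7e-06). SFXN2 was higher in epididymis at 42.1 ± 17.4 against 2.17 ± 0.507 CPM in testis (-4.24 ± 0.35, adjusted p 6.4e-07). The voltage-dependent anion channels, the pores of the outer membrane, also split. VDAC3 was higher in testis at 269.6 ± 86.6 against 48.9 ± 11 CPM (2.46 ± 0.25, adjusted p 3.6e-06), as was VDAC2, and VDAC1 was higher in epididymis at 161 ± 22.5 against 70.2 ± 9.68 CPM (-1.17 ± 0.17, adjusted p 6.9e-05).

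Among 11 genes of mitochondrial calcium uptake and exchange, 5 were higher in testis, 2 were higher in epididymis and 4 were not called (median 0.12). MCUB, a dampening subunit of the calcium uniporter, had a log2 fold change of 2.55 ± 0.31 (adjusted p 1.6e-05) and LETM2 one of 1.82 ± 0.27 (adjusted p 7.6e-05). SMDT1, another uniporter subunit, was not called (-0.17 ± 0.21, adjusted p 0.49), and it passed the threshold towards epididymis without testis replicate 4 (-0.39, adjusted p 0.0273). Of the 4 mitochondrial ABC transporters, 2 were higher in testis and 2 were not called (median 0.71), with ABCB6 at 2.43 ± 0.23 (adjusted p 1.9e-06) and ABCB8 at 1.55 ± 0.23 (adjusted p 7.8e-05). Of 16 protein import genes, 4 were higher in testis, 5 were higher in epididymis and 7 were not called (median 0.19). TIMM50, a receptor of the inner membrane, was at 2.33 ± 0.20 (adjusted p 9.3e-07), TOMM20, a receptor of the outer membrane, at -1.95 ± 0.22 (adjusted p 8.8e-06), and TIMM17B was not called (0.28 ± 0.24, adjusted p 0.302).

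Enzymes that use what the carriers move were also mixed. Of 8 enzymes of the malate-aspartate and glycerol phosphate shuttles, 3 were higher in testis, 4 were higher in epididymis and 1 was not called (median -0.20). GOT1, the cytosolic aspartate aminotransferase, was higher in testis at 172 ± 7.88 against 31.3 ± 2.49 CPM (log2 fold change 2.48 ± 0.15, adjusted p 6.2e-08). MDH1B, a malate dehydrogenase relative, gave 21.5 ± 4.70 and 0.123 ± 0.15 CPM (7.33 ± 0.62, adjusted p 7.8e-07, and a log2 fold change of 8.23 without epididymis replicate 3), and the mitochondrial MDH2 was not called (0.36 ± 0.19, adjusted p 0.111). With DESeq2's size factors MDH2 was called higher in testis (0.48, adjusted p 0.04).

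Of the 6 carnitine enzymes, 4 were higher in testis, as SLC25A20 was, and 2 were higher in epididymis (median 1.24). CRAT, carnitine acetyltransferase, gave 599.5 ± 69.8 CPM in testis and 194 ± 55.8 CPM in epididymis (1.64 ± 0.26, adjusted p 0.000113). CROT, the peroxisomal octanoyltransferase, went the other way at 8.55 ± 2.83 and 92.3 ± 25.8 CPM (-3.42 ± 0.27, adjusted p 5.0e-07). CPT1C was higher in epididymis (-3.61 ± 0.81, adjusted p 0.0016), with a log2 fold change of -1.97 without epididymis replicate 3 and -2.61 with the replicate block. Of 8 genes of citrate use, 3 were higher in testis, 2 were higher in epididymis and 3 were not called (median 0.51). CS, citrate synthase, was at 2.02 ± 0.28 (adjusted p 4.2e-05), ME1, malic enzyme, at 1.62 ± 0.31 (adjusted p 0.000447) and FASN, fatty acid synthase, at -1.04 ± 0.30 (adjusted p 0.00787). Against testis replicate 4 alone CS was at 0.83 (adjusted p 0.0533).

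Of 7 ornithine and urea cycle genes tested, 3 were higher in testis, 1 was higher in epididymis and 3 were not called (median 0.47). CPS1, carbamoyl phosphate synthetase, was at 4.51 ± 0.74 (adjusted p 0.000158, and 5.22 on the log2 scale without epididymis replicate 1), ASS1, argininosuccinate synthase, at 1.54 ± 0.25 (adjusted p 0.000167) and OAT, ornithine aminotransferase, at -0.68 ± 0.21 (adjusted p 0.0122, 0.0532 without testis replicate 3 and 0.0826 without epididymis replicates 3 and 4). Of 9 heme and iron-sulfur genes, 1 was higher in testis, 3 were higher in epididymis and 5 were not called (median 0.27). FECH, the last enzyme of heme synthesis, was at -1.27 ± 0.17 (adjusted p 3.4e-05). ALAS2, the first enzyme in red cells, was at -1.83 ± 0.71 (adjusted p 0.0345), beside red blood cell markers that summed to 12.5 to 72.8 CPM in epididymis and 4.01 to 19.1 CPM in testis, a list that holds ALAS2 itself. Their part in it was not tested. Its call was lost when testis replicate 1, 4 or 5 or epididymis replicate 2 or 3 was left out, with adjusted p up to 0.0865. ALAS1, the first enzyme in other cells, was not called (0.28 ± 0.49, adjusted p 0.614).

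Of 7 mitochondrial one-carbon genes tested, 1 was higher in testis, 4 were higher in epididymis and 2 were not called (median -1.53). GLDC, which cleaves glycine, gave 1.91 ± 0.273 CPM in testis and 256 ± 179 CPM in epididymis (-7.02 ± 0.48, adjusted p 1.7e-07). MTFMT, which formylates the initiator tRNA, was at -2.59 ± 0.48 (adjusted p 0.000369). Of 12 regulators of mitochondrial gene expression, 4 were higher in testis, 4 were higher in epididymis and 4 were not called (median 0.16), with the coactivator PPARGC1B at -1.71 ± 0.33 (adjusted p 0.000533), the receptor ESRRB at 1.64 ± 0.49 (adjusted p 0.00837, and 2.51 without epididymis replicates 3 and 4) and the mitochondrial RNA polymerase POLRMT at 1.05 ± 0.21 (adjusted p 0.000668). Of 10 kinases that buffer or use ATP, 4 were higher in testis, 4 were higher in epididymis and 2 were not called (median 0.20). CKB, a cytosolic creatine kinase, gave 3.60 ± 0.492 CPM in testis and 473 ± 158 CPM in epididymis (-7.03 ± 0.34, adjusted p 1.9e-08), and AK7, an adenylate kinase of cilia and flagella, gave 34.2 ± 24.1 and 2.81 ± 2.15 CPM (3.59 ± 0.62, adjusted p 0.000245, and 2.78 on the log2 scale without replicate 4 of both tissues).

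Testis replicate 4 alone left these partners with fewer calls. MTCH1, ABCB8, CPT1C, CS, FASN, ME1, OAT, CPS1, ALAS2, FECH, MTFMT, ESRRB and POLRMT were then not called, with adjusted p from 0.0533 (CS) to 0.546 (OAT). The log2 fold changes of 4 of them grew or stayed close: MTCH1 was then at -1.58, CPT1C at -4.16, FASN at -1.45 and ALAS2 at -3.61. The others were smaller, at 1.47 for ME1, 1.19 for ABCB8, 4.12 for CPS1, -1.04 for FECH, -1.86 for MTFMT, 1.26 for ESRRB, 0.61 for POLRMT, -0.40 for OAT and 0.83 for CS. The calls of MPC1L (8.11), MCUB (3.58), VDAC3 (3.19), TOMM20 (-1.16), CROT (-2.68), PPARGC1B (-2.39) and AK7 (4.87) held with log2 fold changes that moved by more than 1.5 times on the linear scale.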

How the data were processed

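Short-read RNA sequencing was done on 5 testis and 5 epididymis libraries of BMI boars, and 2 pooled long-read samples were left aside. TRIzol RNA, per the labels' protocols, was enriched for poly(A) and amplified as cDNA. Small structural and histone RNA were nonetheless far higher in the testis libraries other than replicate 4 than in every epididymis library, as given above. Whether all libraries were prepared as the protocols state, and so whether the tissues shared a preparation, was not tested. Per the submitters' processing notes, the tools were cutadapt 3.0, STAR and featureCounts (Subread) on Sscrofa11.1. Not given in the sources used here: strand setting, annotation release and treatment of reads with several positions. The authors deposited raw counts, whole reads per gene without normalization, and, per the file headers, gene lengths in bases (another number, used for RPKM only).

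Rows carried a symbol or, in 15226 cases, an Ensembl identifier, of which a table of gene names matched 822 and 810 took its symbol. Coordinates come from the RefSeq gene table (Sscrofa11.1), counted from 1 over the whole gene. Replicate libraries differed by more than sampling noise (lowest chi-square per degree of freedom 9.53 in testis and 72.5 in epididymis), so each counts as 1.

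edgeR 4.0.16 in R 4.3.3 (filterByExpr, TMM factors, robust quasi-likelihood test, tissue as the only term) tested 17225 genes. Benjamini-Hochberg adjusted p under 0.05 was a call, and glmTreat tested for change beyond 2-fold. Approximate standard errors are the log2 fold change before shrinkage over the square root of F. Scripts were tested on simulated data. Alternatives were DESeq2 1.42.0, other scalings, no filter, a replicate block and libraries left out. Leaving out replicate 4 of both tissues, and testis replicate 4 with epididymis replicate 3, was chosen after seeing the data. So were the family sums without its 2 leading epididymal members and the shares without 1 library. The pairing of replicate numbers comes from the boar numbers in the file headers. Deviations of same-numbered libraries correlated by 0.00867 to 0.0893.

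Named with values were all ADP/ATP carriers and UCPs, the 10 largest changes called in each direction, the 10 most abundant members per length, members not called whose level was above the family's median, and members not tested. In each related list these were the 2 largest called changes and the most abundant gene. Of the members so chosen, 1 is counted in the totals but not reported here by name. The members and all lists were chosen with earlier results of these data known.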

Additional observations from a re-analysis of the deposited data

Results flagged for a closer look

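Of the 60 groups of 5 libraries examined for the named members, 12 held a library whose gap to its nearest neighbour, over the range of the group, exceeded Dixon's critical value of 0.71. Chance alone flags about 1 in 20 such groups if they are independent and normally distributed. These groups share the same libraries. The share of all genes flagged was not computed, so the 12 are not a result about the members. Testis replicate 4 accounted for 9 of the 12. In that library SLC25A4 measured 49.9 CPM (others 14.1 to 18.0), SLC25A5 39.8 CPM (19.2 to 24.9), SLC25A24 7 CPM (3.74 to 4.23), SLC25A29 71.2 CPM (31.2 to 39.4), SLC25A33 75.7 CPM (47.9 to 55.3), SLC25A37 59.4 CPM (33.8 to 38.8), SLC25A41 44.5 CPM (26.7 to 30.9) and SLC25A48 37.5 CPM (17.5 to 23.1). SLC25A38 was low there, at 46.1 CPM (60.4 to 64.1). More widely, testis replicate 4 was the highest testis library for 23 of 41 members (56.1%) and for 40.6% of all genes tested.

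Epididymis replicate 3 was high for SLC25A20, at 34.1 CPM (others 4.95 to 10.1), and low for SLC25A1, at 84.8 CPM (127 to 143). It was the lowest epididymis library for 16 of 41 members (39.0%) and for 19.6% of all genes tested. Epididymis replicate 4 was high for SLC25A48, at 1.33 CPM against 0 to 0.383 CPM.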

How the results depend on the processing

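Leaving out 1 library at a time gave 10 to 12 members higher in testis, 19 to 20 higher in epididymis and 19 to 22 beyond 2-fold, beside 35.0 to 39.2%, 34.5 to 38.2% and 48.0 to 53.5% of all genes tested. The replicate block gave 10, 19 and 20 (all genes 36.6%, 35.2% and 49.5%) against 10, 19 and 21, and changed no call of a named member. DESeq2 size factors gave 11, 19 and 19 (all genes 38.7%, 35.1% and 49.8%) and moved the median log2 fold change of all genes from -0.07 to 0.05, so directions are relative to that scaling. In the fit of testis replicate 4 alone against epididymis, members higher in epididymis fell to 3 (all genes 11.4%) and those beyond 2-fold to 6 (all genes 22.9%), and the testis shares of SLC25A4, SLC25A5 and SLC25A6 were 11.2%, 24.1% and 58.4%. That fit has fewer samples, and its testis library is the one with small structural RNAs as low as those of epididymis.

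Among values that were not called, the sign reversed for SLC25A32 (0.043 with the replicate block, 0.38 with testis replicate 4 alone, -0.569 to 0.463 with 1 library left out), SLC25A35 (-0.379 to 0.0103 with 1 library left out), ALAS1 (-0.0100 to 0.498 likewise, and -0.17 without epididymis replicates 3 and 4), TIMM17B (-0.0136 without epididymis replicates 3 and 4), and, with testis replicate 4 alone, SMDT1 (0.62), MDH2 (-0.11) and SLC25A46 (0.68). The cause was not tested. Depth limits the lowest values, since 0 reads allow 0.0993 to 0.167 CPM. Both tissues come from the same 5 boars, whose libraries are treated as independent except in the replicate block.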
